A study of Mus musculus with 2 samples.

Results

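Transcript models that keep the 3′ exons of an annotated transcript but lack 1 or more of its 5′ exons were examined in C2C12 cells, a mouse myoblast line that the labels trace to injured thigh muscle of C3H mice. Total RNA was read by long-read sequencing in 1 group of 2 biological replicates, with 791850 reads in replicate 1 and 735077 reads in replicate 2, and the labels name no treatment, genotype or differentiation state. The cells come from a single established line, so the replicates share their origin. The muscle intermediate filament gene Des had 881 reads in replicate 1 and 1187 in replicate 2, the myoblast cadherin gene Cdh15 158 and 168, and Itga7 99 and 80. Ptprc, Cdh5, Epcam and Krt8, markers of blood, endothelial and epithelial cells, had 0 reads in both, Pecam1 had 0 and 1, and Hba-a1 7 and 3. A model entered when both libraries classed it as an incomplete splice match of the suffix kind, it had at least 2 exons, its introns were identical in both libraries, and each library held at least 5 reads of it. Of 104971 multi-exon structures read in either library, 886 in 564 genes met this rule. They are called suffix members here. Counts chose them, so their read counts and shares are given as descriptions.

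A long-read cDNA is copied from the poly(A) tail of the RNA towards its 5′ end. When reverse transcription stops early, or when the RNA has lost its 5′ end, the read covers only the last exons of its gene and yields a suffix model. A second promoter inside the gene gives the same intron chain, because transcription then begins at a downstream first exon. The intron chain alone cannot tell these apart, and the position of the start, its recurrence and the share of the gene's reads are the measurements the files offer. TALON, which built the models, also names annotated transcripts (known), new combinations of annotated splice sites (NIC), models with a splice site absent from the annotation (NNC) and prefix models, which lack 3′ exons instead.

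Some start positions recurred, and sequences at them are shown first. Most model starts lay on annotated coordinates, so recurrence there can repeat the annotation. The members of Ak1 (adenylate kinase, which interconverts adenine nucleotides in muscle) and Cav1 (caveolin, the coat protein of caveolae) began exactly at a RefSeq transcript start, and that of Capg (an actin filament capping protein) 5 bases after one. The 100 bases before each RefSeq start are given 5′ to 3′ on the transcribed strand, from RefSeq on GRCm38.p6, which has the chromosome coordinates of mm10, at chr2:32628290-32628389, chr6:17307540-17307639 and chr6:72549547-72549646, all on the plus strand and overlapping no GENCODE M21 exon. Rpl13 (a large-subunit ribosomal protein, chr8:123102250-123102349, plus strand) is shown beside them because its member began at the gene's own first exon and was read unspliced through the first intron. Capitals mark GGGCGG or its reverse complement, the core of the GC box that Sp1-type factors bind.
Ak1: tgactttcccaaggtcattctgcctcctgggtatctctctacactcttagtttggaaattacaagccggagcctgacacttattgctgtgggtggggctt
Cav1: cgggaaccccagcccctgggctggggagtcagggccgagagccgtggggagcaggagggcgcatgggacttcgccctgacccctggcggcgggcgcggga
Capg: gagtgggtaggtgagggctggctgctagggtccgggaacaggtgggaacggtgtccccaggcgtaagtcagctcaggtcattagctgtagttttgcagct
Rpl13: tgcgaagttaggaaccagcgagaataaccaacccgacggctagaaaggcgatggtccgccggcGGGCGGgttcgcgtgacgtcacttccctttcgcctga

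A more frequent position than a RefSeq start was the first base of an internal exon. For these starts, 30 bases of the annotated parent transcript (GENCODE M21) are given, with the 15 bases before the model start in lower case and the 15 bases from the model start on in capitals. All lie within the coding sequence, and the capitals begin at the splice junction. Acta2 lies on the minus strand and the others on the plus strand. Cadm1 encodes a cell adhesion protein, Rpsa a small-subunit ribosomal protein, Vim the intermediate filament protein vimentin, Col3a1 a fibrillar collagen and Acta2 smooth muscle actin.
Cadm1, 9 exons kept, chr9:47787971: cactgatccccacagGTGATGGACAGAATC
Rpsa, 3 exons kept, chr9:120130768: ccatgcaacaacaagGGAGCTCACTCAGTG
Vim, 7 exons kept, chr2:13578413: cagtcattcagacagGATGTTGACAATGCT
Col3a1, 9 exons kept, chr1:45343394: tctcctggtggcaagGGTGATCGTGGTGAA
Acta2, 2 exons kept, chr19:34243498: agccatctttcattgGGATGGAGTCAGCGG

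Suffix models as a whole took 6.74% of the reads in replicate 1 (95% Wilson interval 6.68 to 6.79%) and 5.53% in replicate 2 (5.48 to 5.58%). Intervals cover counting error only. Most were seen once, since 12271 of 19191 suffix models in replicate 1 and 11537 of 16706 in replicate 2 held 1 read. The 886 members held 21401 reads in replicate 1 and 16635 in replicate 2, which is 2.70% and 2.26% of all reads (mean 2.48 ± 0.311%, SD, n = 2). They made up 40.1% of the suffix reads in replicate 1 and 40.9% in replicate 2. A member had a median of 13 reads in replicate 1, with a range of 5 to 645, and of 10 reads in replicate 2, with a range of 5 to 693.

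At the read minimum, 183 members had a lower count of 5, and 279 suffix structures just under it had a lower count of 4. The first members at the minimum by coordinate were a second 6-exon structure of Rpl7 with 5 and 6 reads in replicates 1 and 2, Cox5b with 11 and 5, and Col3a1 with 5 and 6. The first structures just under it were Ube2w with 8 and 4 reads, Txndc9 with 5 and 4, and a 27-exon model of Col3a1 with 5 and 4. These sets lie 1 read apart.

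Members kept a median of 5 exons, from 2 to 29. An annotated transcript of the same gene with the complete chain, called the parent here, was found for 863 members. Where several transcripts matched, the parent was the one with the fewest exons missing, so numbers of missing exons are minimum values. Of the 863 members, 493 lacked 1 exon, 245 lacked 2 to 5 and 125 lacked more than 5, with up to 50 missing. The median member of replicate 1 lacked 282 exonic bases, or 19.3% of its parent's length. Among members lacking 1 exon the median was 126 bases. By this choice of parent, the loss of a single exon was the most frequent form.

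Starts fell into classes by their position in both libraries. Of the 886 members, 317 began within 50 bases of the start of a GENCODE M21 transcript of the same gene, 314 of them exactly on it. A further 418 began exactly on the acceptor of a parent exon, 13 began at least 20 bases into the intron before it, 37 inside the exon, and 101 in other or mixed positions. Of the 317 at an annotated start, 287 matched a transcript annotated as complete at its 5′ end and 30 matched only transcripts annotated as incomplete there. In RefSeq, 701 members in 443 genes had an entry, and 37 members began within 50 bases of a RefSeq start.

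Members at an annotated start had a higher median share of the gene than members on an acceptor. The median share of the gene's reads was 6.20% in replicate 1 and 5.39% in replicate 2 at annotated starts, and 3.67% and 3.01% on acceptors. The parent's start codon was kept in both libraries by 145 of 298 members at an annotated start with a coding parent (48.7%), by 115 of 418 on an acceptor (27.5%), by 0 of 37 inside an exon and by 1 of 13 in an intron. Over all 857 members with a coding parent, 273 kept the start codon in both libraries, 566 lacked it in both and 18 kept it in 1 library. No test was made across members, which share genes and libraries.

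An annotated start did not always lie downstream of the gene's own first exon. In 72 members the first exon ran through the intron into the preceding exon of the parent in both libraries, and 71 of these were at an annotated start. Such a model carries at least part of that preceding exon, joined by unspliced intron, and 49 of the 72 lacked 1 exon of the chain by this measure. Their read-through introns were short, with a median of 164.5 bases, and 31 of the 72 began within 50 bases of the parent's own start. Leaving them out, 246 members remained at an annotated start. Of the 104 members that began in the intron without reaching the exon before it, 92 were at an annotated start, and the median length of that intron was 656 bases.

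Read-through members included Hnrnpf, an RNA-binding splicing regulator, with 118 reads in replicate 1 and 117 in replicate 2 (22.9% and 22.8% of the gene). S100a13, a small calcium-binding protein, had 143 and 67 reads, and its first exon began at the parent's own start. Rps21 (small ribosomal subunit) had 100 and 59 reads and Eif3i (a subunit of initiation factor 3) had 68 and 56. S100a13 had 73.3% and 77.9% of its gene, so its share differed less between libraries than its read count.

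Other members that began in an intron at an annotated start did not reach the exon before it. Cd63, a tetraspanin of late endosomes and exosomes, had 178 reads in replicate 1 and 159 in replicate 2, beginning 473 bases before the acceptor (chr10:128909922). Fmo1, a flavin-containing monooxygenase, had 98 and 99 reads and Ak1 had 75 and 84. These were 90.7% and 91.7% of Fmo1 reads, and 36.8% and 37.0% of Ak1 reads. Cav1 had 52 and 76 reads, or 22.5% and 25.2%, and its member lacked the parent's start codon. In each of these genes the starts were identical in both libraries, but at annotated starts such agreement can repeat the annotation.

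The most read member was Rplp0, which encodes the P0 protein of the ribosomal stalk. Its model of 6 of 7 exons had 645 reads in replicate 1 and 693 in replicate 2, or 16.8% and 18.5% of the gene, and it began 86 bases apart in the 2 libraries. The next at an annotated start were Rpl6 (large ribosomal subunit) with 292 and 296 reads, the 7-exon model of Eef1a1, the factor that delivers aminoacyl-tRNA to the ribosome, with 226 and 271, and Ctsa, the lysosomal protective protein cathepsin A, with 192 and 222. Prkar1a, a regulatory subunit of protein kinase A, had 134 and 151 reads and Esd (esterase D) 124 and 104. Atp5j, a coupling factor of ATP synthase, had 248 and 202. It did not meet both criteria, an annotated start and starts within 20 bases between libraries. All but Ctsa and Rpl6 kept the parent's start codon. On an acceptor, Rps4x (small ribosomal subunit) had 199 and 217 reads and the glutathione transferase Gsta4 127 and 135. In Rps4x the missing exon carried the start codon.

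Reads of ribosomal protein genes, Eef1a1 and other genes with many processed pseudogenes or overlapping annotations can be shared between near-identical copies, so their counts are uncertain to that extent. The assignment itself differed once: a 3-exon structure with 53 reads in replicate 1 and 62 in replicate 2 was given to Cfl1 in replicate 1 and to Efemp2 in replicate 2.

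Model starts agreed closely between libraries, and most lay exactly on annotated coordinates. The start was identical in 750 of 886 members (84.7%) and the 3′ end in 646 (72.9%). In 830 members the start sat exactly on an annotated exon edge in both libraries, so agreement there can repeat the annotation. How far a read's own end may lie from such an edge is not given in the sources used here, and the spread of read ends behind a start is not in the files. Off the edges in both libraries lay only 15 members, of which 8 had identical starts and 12 lay within 20 bases.

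Where starts differed, their median gap was wider than that of differing 3′ ends. The median gap was 111.5 bases over 136 members with different starts, and 7 bases over 240 members with different 3′ ends. Wide gaps were no rarer at the ends, since 59 members had starts and 66 had 3′ ends over 200 bases apart. Neither library was consistently longer, since replicate 1 began further upstream in 71 of the 136 and replicate 2 in 65. Starts over 200 bases apart were found in 6.66% of members, 2.19% of 319 prefix structures, 1.41% of 427 NIC structures and 1.74% of 287 NNC structures chosen by the same read minimum. Identical starts were found in 68.7%, 66.5% and 76.3% of these prefix, NIC and NNC structures. The gaps were thus more often 0 and more often wide in suffix members than in the other classes, as counts without a test.

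**Figure D1:**
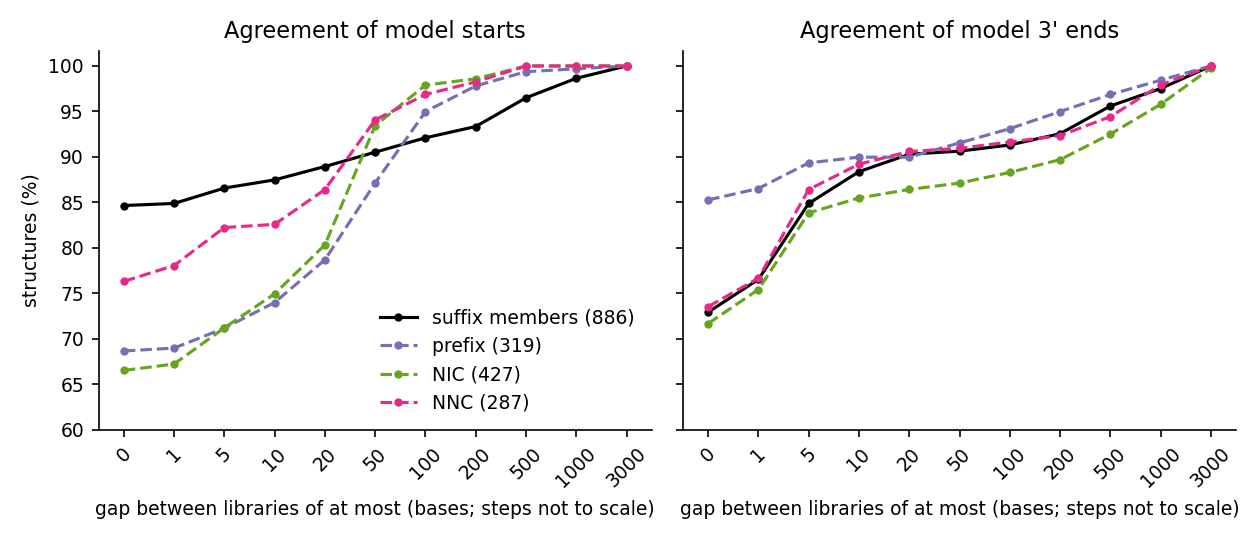
Cumulative percentage of structures whose model starts (left) or 3′ ends (right) lie within a given number of bases between the 2 libraries, for suffix members and for prefix, NIC and NNC structures with at least 5 reads in each library. The horizontal steps are not to scale. The curve of the suffix members begins highest for starts, at 84.7%, and lies below the others between 100 and 1000 bases.

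The 5 widest gaps of starts ranged from 1667 to 2849 bases. Atp5d (ATP synthase delta subunit) had 14 reads in replicate 1 and 9 in replicate 2, with starts 2849 bases apart. Acta2 with 4 exons had 25 and 17 reads and a gap of 2185 bases, and Wdr6 had 8 and 9 reads and a gap of 2047 bases. Rack1, a ribosome-bound scaffold, had 57 and 23 reads with 1941 bases, and the actin-binding profilin gene Pfn1 47 and 10 reads with 1667 bases. In each of these the intron chain was shared but the first exon differed in length.

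A member's share of its gene's reads was usually small. The median was 4.19% in replicate 1 and 3.45% in replicate 2. The share was higher in replicate 1 for 532 members and higher in replicate 2 for 351. In genes with at least 20 reads in each library, 25 members held at least 50% of the gene in both libraries. Of these, 22 lacked a single exon, 18 kept the parent's start codon, 15 were at an annotated start and 7 on an acceptor. For 9 of the 25, no read of an annotated transcript was found in either library.

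Among genes with at least 20 reads in each library, the highest mean share was in Ndufa13, a subunit of respiratory complex I, with 345 reads in replicate 1 and 231 in replicate 2, 91.8% and 91.7% of the gene. This model of 4 of 5 exons began on the acceptor at chr8:69901732 on the minus strand, 678 exonic bases after its parent's start, and kept the start codon. Fmo1 followed with the 90.7% and 91.7% given above. Arsa (arylsulfatase A, a lysosomal enzyme) had 26 and 24 reads, 96.3% and 85.7% of the gene. Bud23, an 18S rRNA methyltransferase, had 71 and 69 reads, 91.0% and 90.8%. Ethe1, a mitochondrial sulfur dioxygenase, had 33 and 37 reads, 86.8% and 92.5%. In Ndufa13, Arsa, Bud23 and Ethe1, annotated transcripts had at most 1 read in either library.

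Psmc2, an ATPase of the proteasome's regulatory particle, had 277 reads in replicate 1 and 240 in replicate 2, 85.5% and 92.0% of the gene, with starts 20 bases apart. The homeobox gene Hoxc9 had 24 and 26 reads, 85.7% and 92.9%, from a start 577 bases inside an exon. Myl12b, a regulatory light chain of non-muscle myosin, had 28 and 22 reads, 90.3% and 88.0%. Ctsa held 76.8% and 83.8% of its gene, Gsta4 64.5% and 69.9%, and Atp5j 56.6% and 58.2%. Psmc2, Myl12b, Gsta4 and Atp5j kept the start codon, while Ctsa and Hoxc9 lacked it.

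**Figure D2:**
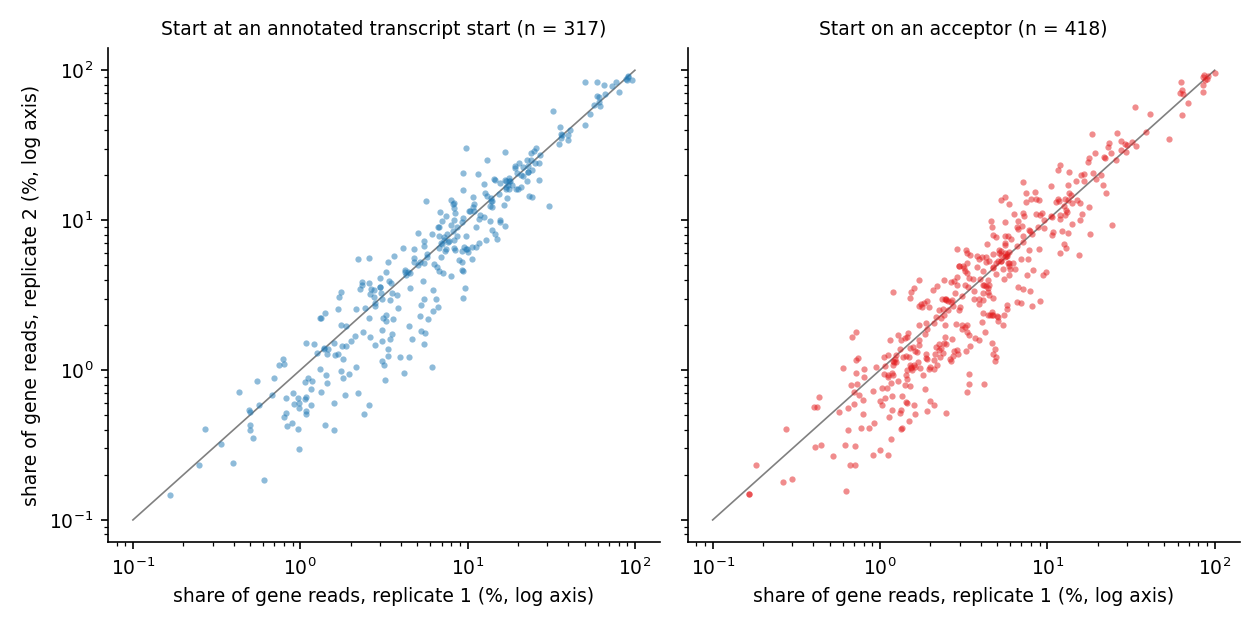
Share of the gene's reads taken by each suffix member, replicate 1 on the horizontal and replicate 2 on the vertical log axis, for the 317 members at an annotated transcript start (left) and the 418 on an acceptor (right). Each point is 1 member and the grey line marks equal shares. The points with shares near 90% lie close to the line, and many of the smaller shares lie below it.

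Member genes were short and highly expressed. Their span on mm10 had a median of 12.5 kb, against 19.7 kb for the 6432 multi-exon genes with at least 10 reads in each library. Their most read annotated transcript had a median length of 1853 bases, against 2325.5 bases in those genes. Median gene reads in replicate 1 were 206.5 in member genes and 43 in the 6432 genes. A member was found in 1.29% of genes with a mean of 10 to 30 reads and in 82.7% of genes with over 1000 reads, and a minimum of 5 reads per library favours such genes by construction. Span and expression were not separated by a test.

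Counted over all suffix reads rather than members, the share rose with transcript length. Of multi-exon reads in genes whose most read annotated transcript was under 600 bases, 2.42% were suffix reads in replicate 1 and 2.03% in replicate 2. At over 5000 bases they were 12.4% and 9.68%. Prefix reads ran from 0.192% and 0.233% in the shortest bin to 6.95% and 7.55% in the longest. Replicate 1 had the higher suffix share in each of the 7 length bins, while the prefix shares of the libraries lay closer together.

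**Figure D3:**
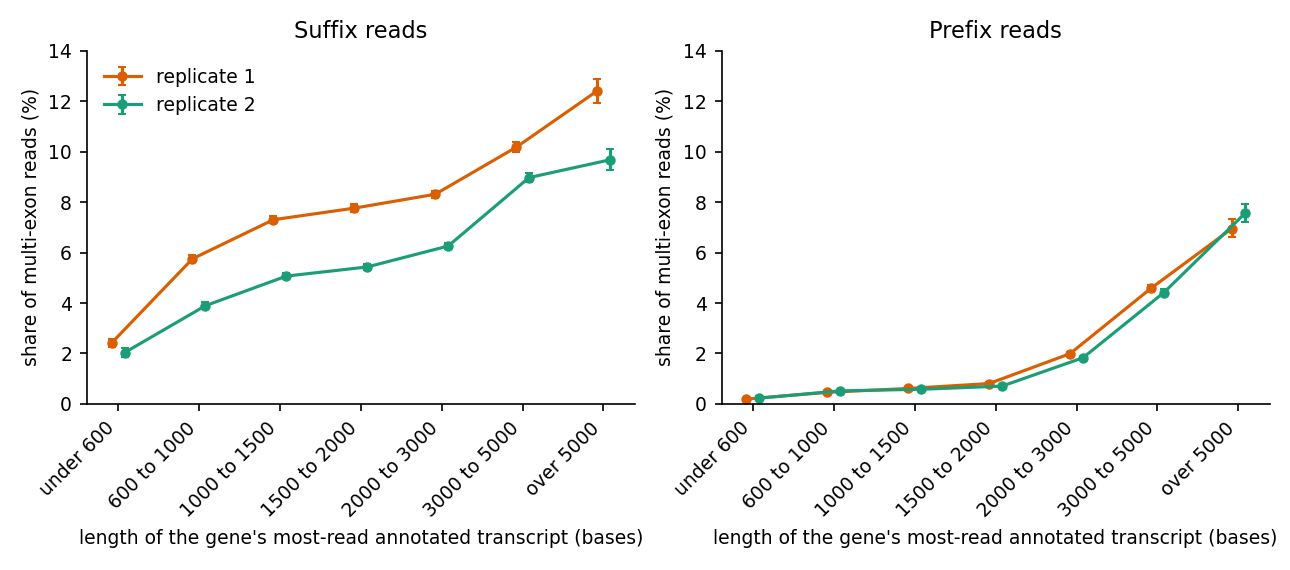
Share of multi-exon reads on suffix models (left) and prefix models (right), by the length of the gene's most read annotated transcript, for replicate 1 and replicate 2. Points are percentages and bars are 95% Wilson intervals for counting error. Suffix shares run from 2.42% to 12.4% in replicate 1 and from 2.03% to 9.68% in replicate 2.

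Of the longest genes with a member, Cdh13 and Cadm1 had starts far from any annotated start. Cdh13, a cadherin gene, spans 1041189 bases, and its member of 13 of 14 exons had 34 reads in replicate 1 and 33 in replicate 2, 64.2% and 73.3% of the gene, on an acceptor 191191 bases from the nearest annotated start. Cadm1 spans 327465 bases, and its 9-exon member had 62 and 104 reads, 87.3% and 86.7%, on an acceptor 257598 bases downstream of the nearest annotated start. Both members lacked the start codon, and neither gene had a read of an annotated transcript. Celf2 (an RNA-binding splicing regulator) had 18 and 20 reads at an annotated start, Smyd3 (a lysine methyltransferase) 9 and 6 on an acceptor, and Msra (methionine sulfoxide reductase) 9 and 12 at an annotated start. The Smyd3 and Msra genes had 13 and 10, and 10 and 14 reads in all.

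Most genes had a single member, but some had members at many exons. One member was found in 420 genes, 2 in 80, 3 or 4 in 38, and 5 or more in 26. Pkm (pyruvate kinase, glycolysis) had 12, Eef2 (translation elongation) 11, Col1a2 (a chain of type I collagen) 9 and Eef1a1 8. In Eef1a1, suffix reads of models keeping 2, 3, 4, 5, 6 and 7 exons numbered 188, 219, 48, 119, 75 and 263 in replicate 1, and 61, 103, 32, 69, 38 and 329 in replicate 2. The model lacking 1 exon was the most read in both libraries, and the models keeping fewer exons were more read in replicate 1. Fewer exons did not always mean a later start. The 2-exon and 3-exon members of Eef1a1 shared their start in replicate 1, as did the 2-, 3- and 4-exon members of Eef2. In Rpsa, models keeping 2, 3, 4 and 5 exons had 48, 250, 235 and 87 reads in replicate 1, and 17, 74, 101 and 49 in replicate 2.

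**Figure D4:**
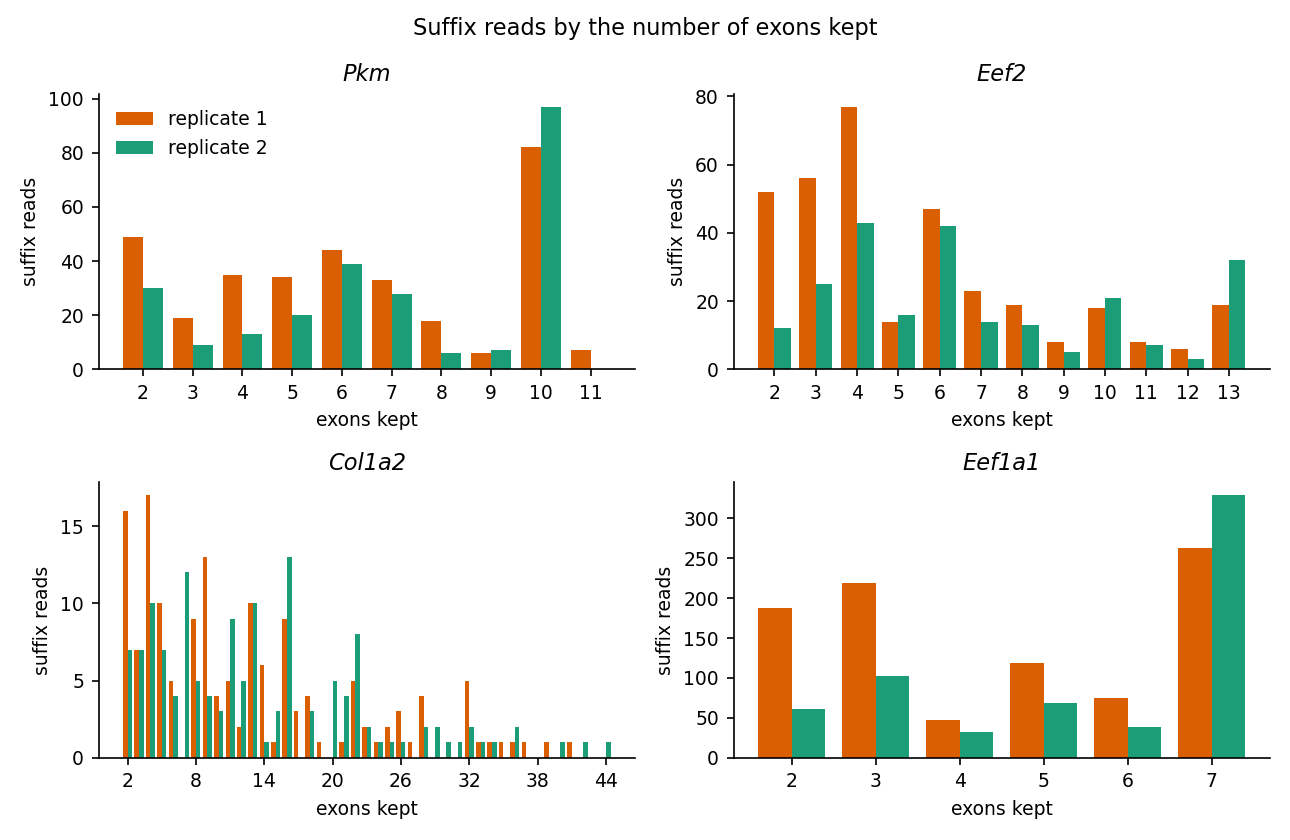
Suffix reads by the number of exons kept in Pkm, Eef2, Col1a2 and Eef1a1, with replicate 1 and replicate 2 side by side. Bars give read counts summed over the suffix models of the gene, and each panel has its own scale. Models with different numbers of exons can share a start, so the horizontal axis does not order the starts. Reads are spread over many exon numbers in each gene, and Pkm and Eef1a1 have their highest bar at 10 and 7 exons in both libraries.

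The 2 libraries were compared for the share of the gene taken by each structure, with a two-sided Fisher's exact test and Benjamini-Hochberg adjustment over 8498 structures of all classes. At an adjusted p under 0.05, 2.22% of all structures were called, 1.01% with the higher share in replicate 1 and 1.21% with the higher share in replicate 2. Each side of the test is 1 library and its p-values cover counting error only, with no estimate of the spread between libraries. The read minimum that chose the members used the same counts, so their calls are given beside the share over all structures and nothing is read from them. Of 864 members tested, 52 were called (6.02%), all 52 with the higher share in replicate 1 and 0 with the higher share in replicate 2. Unadjusted, 132 of these members and 943 of the 8498 structures had a p under 0.05. In genes with at least 100 reads in each library the shares lay closer, with 62 of 691 members called (8.97%) and 6.36% of all 3744 structures. A binomial test of the counts called 72 of 886 members (8.13%), against 4.05% of all 10328 structures. Of these members 68 were higher in replicate 1, against 2.18% of all structures, and 4 were higher in replicate 2, against 1.87%. The median log2 ratio of replicate 1 over replicate 2, with 0.5 reads added, was 0.14 in members and -0.04 in all structures.

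Among members, the median ratio was higher in those keeping few exons, which is given as a description only. Members keeping 2 exons had a median log2 ratio of 0.57, with 13 of 108 called, those keeping 3 exons 0.54 with 19 of 148, and those keeping 4 exons 0.38 with 14 of 131. Members keeping 7 to 10 exons had a median of -0.03 with 0 of 184 called, and those keeping more than 10 had -0.08 with 0 of 116. Among members lacking 1 exon the median was -0.03 and 13 of 484 were called (2.69%). Among those lacking more than 1 exon it was 0.58 with 39 of 357 called, and 288 of 357 had the higher share in replicate 1. At annotated starts 20 of 311 were called and on acceptors 21 of 410, with medians of 0.09 and 0.11. These groups were formed after values had been seen and hold members only. The share called over all structures was 2.22% and was not worked out by exons kept or missing, so nothing is read from the calls by group. Called members lay in genes with a median of 1730.5 reads in replicate 1, against 372 over all members, and the part of gene expression in the calls was not tested. The libraries also differed in models that TALON classes as genomic, which took 5.29% of reads in replicate 1 and 3.22% in replicate 2, and the part of this difference was not tested either.

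**Figure D5:**
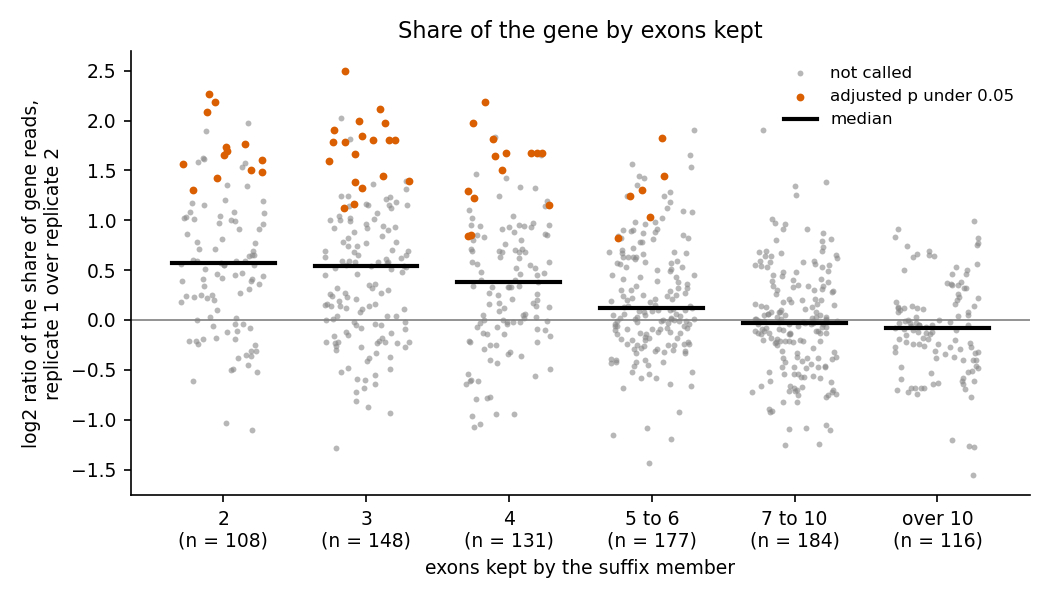
Log2 ratio of the share of the gene's reads, replicate 1 over replicate 2, for the 864 members tested, by the number of exons kept. Grey points were not called, orange points had an adjusted p under 0.05 by Fisher's exact test, and black lines are medians. The medians lie at 0.57 for 2 exons and at -0.08 for over 10 exons, and each orange point lies above 0.

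The 4 members with the smallest adjusted p lay in 3 genes of translation, Eef1a1, Rpsa and Rpl14. The 2-exon model of Eef1a1 had 188 reads in replicate 1 and 61 in replicate 2, a log2 ratio of 1.66 in the share of the gene. The 3-exon model of Rpsa had 246 and 73 reads, a log2 ratio of 1.39. The 3-exon models of Eef1a1, with 219 and 103 reads, and of Rpl14, with 66 and 10, had log2 ratios of 1.13 and 2.50. Of the 52 called members, 20 lay in 15 genes whose symbols begin with Rpl or Rps. All 43 such genes with a member held 87 of the 864 members tested. At most 4 exons were kept by 46 of the 52, as by 387 of the 864. The share called among all structures of Rpl and Rps genes was not worked out, so nothing is read from these counts. Outside translation, the 2-exon models of Acta2 with 100 and 32 reads and of Hsp90ab1, a chaperone, with 129 and 47 had log2 ratios of 1.60 and 1.31. The 2-exon model of Pfn1, with 47 and 10 reads, had a log2 ratio of 1.77.

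Genes known for promoters within the gene body were looked at one by one. Of 11 such genes with at least 10 reads in each library, 4 had a member (36.4%), against 8.71% of all 6432 genes at that minimum. That rate depends on expression, from 1.29% at a mean of 10 to 30 gene reads to 82.7% at over 1000. The part of expression in the 36.4% was not tested. These 4 genes held 8 members, and 2 of the 8 were at an annotated start. In Mdm2, the ubiquitin ligase of p53, whose second promoter is p53-responsive, 11 of 12 exons were kept by 13 reads in replicate 1 and 13 in replicate 2, 25.5% and 30.2% of the gene. That start lay at an annotated start (chr10:117710022), 6 bases inside the exon, and the start codon was kept. Tpm3 is a tropomyosin with short isoforms from an internal promoter. Its member kept only 4 exons and had 18 reads in replicate 1 and 6 in replicate 2 at an annotated start. Whether that start belongs to the internal promoter was not tested. The other 6 members were not at an annotated start: 4 in the imprinted locus Gnas and 2 in Tpm1, another tropomyosin. In Gnas, models keeping 2, 3, 4 and 10 exons had 7, 6, 13 and 8 reads in replicate 1, and 5, 7, 16 and 6 in replicate 2. In Tpm1, those keeping 6 and 8 exons had 5 and 7 reads in replicate 1, and 5 and 5 in replicate 2.

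Gene lists by function, counted over genes with at least 10 reads in each library, held members at different rates, against 8.71% of all 6432 such genes. A member was found in 20 of 31 translation factor genes, 9 of 19 sarcomere genes, 14 of 30 chaperone genes, 13 of 31 actin, myosin and adhesion genes, 17 of 41 energy metabolism genes and 8 of 20 tubulin, intermediate filament and lamina genes. It was found in 12 of 35 extracellular matrix genes, 8 of 40 RNA-binding protein and helicase genes and 5 of 33 replication and mitosis genes. The lists differ in expression, whose part in these rates was not tested. In the extracellular matrix list, 32 of 38 members lay on an acceptor and 3 at an annotated start, whereas in the translation list 26 of 64 lay on an acceptor and 26 at an annotated start. Over all members these were 418 and 317 of 886.

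The best supported members of each list kept very different parts of the parent transcript. Anxa2, a membrane-binding annexin, had 108 reads in replicate 1 and 129 in replicate 2 on 12 of 13 exons, and the 8-exon model of Acta2 had 113 and 112 on 8 of 9. In the same gene the 2-exon model described above was the next most supported. The 10-exon model of Pkm had 53 and 67 reads and that of Ldha (lactate dehydrogenase) with 7 exons had 34 and 62. Sparc, a matricellular protein, had 28 and 42 reads on 9 of 10 exons, and 39 and 24 on 3 exons of a 4-exon parent. The chaperone list was led by Hsp90ab1, whose parent has 11 exons, with 78 and 49 reads on 3 exons and 129 and 47 on 2. Actg1 (cytoplasmic actin) had 117 and 93 on 3 of 5 exons, Tuba1a (tubulin) 38 and 63 on 3 of 4, Vim 38 and 31 on 7 of 9, and Ncl (nucleolin) 11 and 10 on 6 of 14. In the replication and mitosis list, Bub3 (spindle checkpoint) had 7 and 7 reads and Ccnd3 (cyclin D3) 6 and 6.

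Promoter sequence at the RefSeq starts was described by motif. The 37 members at a RefSeq start fell on 36 windows of 300 bases, from 250 before to 50 after the start. Starts at a gene's own first exon, as in Rpl13, were not separated from starts further downstream. GGGCGG on either strand was found in 19 of the 36 (52.8%), in 21 of 43 other RefSeq promoters of the same genes (48.8%), in 384 of 620 RefSeq promoters of all member genes (61.9%) and in 35.7% of all 32851 windows. TATAAA on either strand was found in 3 of 36 (8.33%), 5 of 43 (11.6%), 61 of 620 (9.84%) and 13.6%. The median number of CpG dinucleotides was 17, 15, 20 and 7 in the same order, so both GGGCGG and CpG were more frequent over all member genes than at the member starts. The 2 motifs cannot overlap each other, and a match is a description, not a bound site.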

How the data were processed

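Total RNA of C2C12 cells was read by long-read sequencing in 2 libraries. For each library the deposited table gives raw read counts for the transcript models, and a deposited annotation gives their mm10 coordinates. Per the file headers, annotation used GENCODE M21 and new models come from TALON. No aligner or filter is stated in the sources used.

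Models were matched by chromosome, strand and exact intron chain. Members had at least 5 reads in each library. The share of the gene is a member's reads over all reads of the gene. Starts were compared with GENCODE M21 (50 bases) and RefSeq promoters. Fisher's exact test used structures with at least 10 reads summed and genes with at least 20 in each library (Python 3.11.15, SciPy 1.17.1), and was tested on simulated data. TMM factors came from edgeR 4.0.16. The members and gene lists were chosen with earlier results of these data known. Members were named by rule: highest counts, shares, start gaps, gene spans and smallest adjusted p, all members in genes with internal promoters, those at the read minimum, and the top 2 per list. The values of 1 member under this rule are not reported here. Groups by exons kept were formed after seeing values. Cav1, Capg, Rpl13, Cfl1 and Efemp2 were named after their values were seen.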

Additional observations from a re-analysis of the deposited data

How the results depend on the processing

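The number of members depended on the read minimum: 1749 with at least 3 reads in each library, 396 with at least 10, and 7777 with no minimum. With a minimum of 5 in a single library the number was 1193 in replicate 2 alone and 1790 in replicate 1 alone. Matching by transcript identifier left 0, since identifiers of unannotated models belong to a single library, and keeping at least 3 exons left 775. The median share of the gene, 3.85% averaged over libraries, was 4.92% when set against suffix plus annotated reads alone, and 3.45 to 4.19% in single libraries. The number of members whose share differed between libraries was 29 (3.27% of members, against 0.0864% of all 104189 structures) with no read filter, 62 in genes of at least 100 reads (8.97% against 6.36%), 72 and 71 with the binomial test without and with TMM (8.13% against 4.05%, and 8.01% against 3.76%), and 48 without the 5 genes with most members, an alternative chosen after seeing the data. Members at an annotated start numbered 316 to 335, members in an intron 168 to 206, and starts within 20 bases 775 to 802 under the other limits. The member share of all reads was 2.26 to 2.70% in single libraries. The test of shares needs both libraries, so it was not run without either. The 7 calls of members named in the text remained with the binomial test. No paired analysis was possible because the series has 1 group. Depth limits the precision for single members, whose median count was 13 in replicate 1 and 10 in replicate 2.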
